A study of Homo sapiens with 5 samples.

Results

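The 9 genes described here encode 5 ligands of the EGF receptor family (AREG, EREG, HBEGF, TGFA and BTC), 3 of its receptors (EGFR, ERBB2 and ERBB3) and ERRFI1, an inhibitor that the receptor's own signalling induces. They were taken by name from the 30631 genes listed for each library, after mapping Ensembl identifiers to GENCODE 29 symbols, and all 9 were found. The members were chosen by their FPKM differences between 3-nitropropanoic acid and control libraries, so those values are given as a description, without p-values. Messenger RNA was sequenced from 3 libraries of COV434 cells given 3-nitropropanoic acid (3-NP), an irreversible inhibitor of succinate dehydrogenase, and from 2 libraries of control COV434 cells. The labels give no dose, time or vehicle, and do not say whether libraries came from separate cultures, so errors measure the spread between these libraries, which may be technical. Every title names COV434, although the cell line field runs on to COV438 in the last sample, and all were taken as COV434.

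COV434 is described in the labels as a human ovarian granulosa tumour line. It has since been reassigned by others to small cell carcinoma of the ovary, hypercalcaemic type, a tumour in which the SWI/SNF ATPases SMARCA4 and SMARCA2 are lost. In these files SMARCA4 transcripts were present, at 6.65 ± 1.6 FPKM in 3-NP libraries and 12.6 ± 0.168 FPKM in control libraries. SMARCA2 had 2.46 ± 0.544 FPKM in 3-NP libraries and 3.62 ± 0.696 FPKM in control libraries. These are transcript levels, which do not show whether the proteins are present, and the reassignment was not tested. Of 12 granulosa markers 5 had 1 FPKM or more in every library and 6 stayed under 1 FPKM throughout. FOXL2 (2.51 ± 0.188 FPKM in 3-NP and 6.2 ± 0.988 FPKM in control libraries) and NR5A1 (12.8 ± 1.37 and 23.4 ± 2.13 FPKM, in the same order of groups) were present. The FSH receptor FSHR was listed at 0 in both control libraries and in 2 of the 3-NP libraries and had 0.0169 FPKM in the other. AMH had 1.17 ± 0.0603 FPKM in 3-NP libraries and 1.03 ± 0.231 FPKM in control libraries. The summed level of the granulosa markers was 28.0 to 30.6 FPKM in 3-NP libraries and 41.0 to 44.5 FPKM in control libraries, and its part in the values below was not tested. The markers did not all move alike. FOXL2 and NR5A1 were lower in every 3-NP library. STAR (4.8 ± 0.0932 FPKM in 3-NP and 3.91 ± 0.436 FPKM in control libraries) and GATA4 (2.65 ± 0.175 and 1.81 ± 0.438 FPKM, in the same order) were higher in every one. In the fit described below FOXL2 and NR5A1 were called lower, and STAR and GATA4 were not called. NR5A1 was the largest part of the summed level in every library. Of the immune markers 2 of 5 were in the files and neither exceeded 0.37 FPKM in any library. The endothelial markers summed to 1.52 to 2.57 FPKM in 3-NP libraries and 0.322 to 0.394 FPKM in control libraries. Most of that sum in 3-NP libraries was KDR, at 1.67 ± 0.43 FPKM in 3-NP and 0.214 ± 0.0233 FPKM in control libraries. The other 3 endothelial markers (PECAM1, CDH5 and VWF) stayed under 1 FPKM in every library.

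Values are FPKM (fragments per kilobase of annotated exon and per unit of sequencing depth). The length that gave whole reads joined all annotated exons of a gene, such as 1648 bases for AREG and 12521 for EGFR. A gene whose transcripts use only some of these exons is understated, so levels of different genes compare only roughly. The depth worked out from the values was 18653330 to 18883130 reads in 3-NP libraries and 17837800 and 18752930 reads in control libraries. On a transcript of 2 kb, 3 reads corresponded to 0.0794 to 0.0841 FPKM, and no difference can be read near that level. Fold changes named log2 come from a limma fit on log2(FPKM + 1) over all 11858 genes that reached 1 FPKM in at least 2 libraries. A gene is called where its Benjamini-Hochberg adjusted p in that fit was under 0.05. Of all genes tested 15.5% were called higher and 25.2% lower in 3-NP libraries, 40.8% in all, and the median log2 change was −0.11. Fewer cells of a type and less RNA per cell cannot be told apart in such bulk libraries.

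The EGF receptor family signals from the cell surface. The ligands are made as membrane-anchored precursors, and proteases of the ADAM family, ADAM17 above all, cut them free. A bound receptor pairs with a second family member, both become phosphorylated, and adaptor proteins carry the signal to the RAS-ERK and PI3K-AKT cascades. In the ovary of the mouse, luteinizing hormone induces Areg, Ereg and Btc in granulosa cells of the preovulatory follicle, and these ligands act on EGF receptors of the cumulus cells to bring about expansion of the cumulus and resumption of meiosis. ERRFI1, also called MIG6, binds the kinase domain of active receptors and shuts them off, and its transcript is induced by ERK signalling, so that it closes a negative feedback loop.

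Promoter stretches of 8 of the 9 genes were found in a RefSeq table (GRCh38.p14), ERBB3 being the exception. The 120 bases before the transcription start are printed for the genes whose levels differed most and for BTC, which lies on the same chromosome as AREG and EREG and had the opposite direction. Capitals mark the motifs found on either strand among a cyclic AMP response element (TGACGTCA), a TATA box (TATAAA), an AP-1 site (TGANTCA) and an EGR site (GCGNGGGCG). The sequences run 5′ to 3′ on the strand of the gene, at chr4:74445016-74445135 (plus strand), chr4:74365025-74365144 (plus), chr5:140346604-140346723 (minus), chr4:74794524-74794643 (minus) and chr1:8026310-8026429 (minus).
AREG: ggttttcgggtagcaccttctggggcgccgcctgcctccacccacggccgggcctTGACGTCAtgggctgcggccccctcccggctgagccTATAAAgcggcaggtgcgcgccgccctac
EREG: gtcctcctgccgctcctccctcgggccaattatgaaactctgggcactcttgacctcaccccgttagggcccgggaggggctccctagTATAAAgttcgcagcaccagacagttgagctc
HBEGF: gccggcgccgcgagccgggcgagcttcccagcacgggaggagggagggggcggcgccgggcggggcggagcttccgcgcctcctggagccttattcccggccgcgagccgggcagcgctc
BTC: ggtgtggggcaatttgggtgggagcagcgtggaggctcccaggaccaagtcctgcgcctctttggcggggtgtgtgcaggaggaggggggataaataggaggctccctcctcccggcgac
ERRFI1: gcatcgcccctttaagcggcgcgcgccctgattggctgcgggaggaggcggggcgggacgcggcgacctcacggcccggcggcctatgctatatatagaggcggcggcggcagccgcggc

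In the 300 bases searched per gene, from 250 before the start to 50 after it, AREG held the cyclic AMP response element with its first base 65 bases before the start, and a TATA box 29 bases before it. EREG held a TATA box 32 bases before its start. A second RefSeq entry of EGFR, whose levels overlapped between the groups, held TATA boxes 146 and 36 bases and AP-1 sites 232 and 136 bases before its start. ERBB2, which was lower in 3-NP libraries, held TGATTCA 222 bases before its start, a match to TGANTCA only because that pattern leaves its middle base open. HBEGF, TGFA, BTC and ERRFI1 had none of the 4 motifs, as spelled above, in this window. For the TATA box only TATAAA was searched, and the printed ERRFI1 stretch holds tatatata, which that spelling misses. The printed BTC stretch holds gataaa, which differs from TATAAA only in its first letter. The lack of a match is therefore no sign that a promoter has no TATA box. Among 35116 promoter windows in the same table, 1.85% held TGACGTCA, 11.5% TATAAA, 7.71% TGANTCA and 9.43% GCGNGGGCG. A match describes the letters and not the binding of a factor. The GC box GGGCGG, which 45% of all windows hold, occurred in the windows of AREG, HBEGF, TGFA, BTC, EGFR and ERRFI1.

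Among the ligands, AREG, HBEGF, TGFA and EREG were higher in every 3-NP library than in any control library, and BTC was lower in every one. AREG, amphiregulin, had 16.4, 33.3 and 43.6 FPKM in 3-NP replicates 1, 2 and 3, against 1.0 and 0.918 FPKM in control replicates 1 and 2. These values rest on 509, 1023 and 1352 reads in the 3-NP libraries and on 31 and 27 reads in the control libraries. The lowest 3-NP library thus lay far above both controls, while the 3-NP libraries themselves spread over 2.66 times. The means were 31.1 ± 13.7 FPKM in 3-NP and 0.961 ± 0.0598 FPKM in control libraries (SD, n = 3 and 2), a ratio of 32.3 with a counting interval of 24.9 to 42.6 (95%, exact, counting error only). The fitted log2 change was 3.93 ± 0.36 (SE), the seventh of all genes tested, and 4.77 with a pseudocount of 0.1, since log2(FPKM + 1) understates a change from a low level. AREG lies on chromosome 4 at positions 74445134 to 74455009 (GRCh38, plus strand), and no other annotated gene of GENCODE 29 overlaps it.

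HBEGF, the heparin-binding ligand that is also the receptor of diphtheria toxin, was the most abundant ligand in both groups. It had 48.4, 65.5 and 73.6 FPKM in 3-NP replicates 1, 2 and 3, against 5.50 and 5.67 FPKM in control replicates 1 and 2. The control libraries were nearly equal, and every 3-NP library was well above them. The means were 62.5 ± 12.8 FPKM in 3-NP and 5.58 ± 0.121 FPKM in control libraries, a ratio of 11.2 (log2 change 3.25 ± 0.19 SE). HBEGF lies on chromosome 5 (positions 140332843 to 140346631, minus strand) with no overlapping annotated gene.

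TGFA, transforming growth factor alpha, differed less. Its levels were 5.54, 6.25 and 6.71 FPKM in 3-NP replicates 1, 2 and 3, and 3.24 and 3.17 FPKM in control replicates 1 and 2. The groups did not overlap, with a ratio of means of 1.92 (log2 change 0.76 ± 0.14 SE). The call made by the fit was lost without control replicate 1 (log2 change 0.78) and without control replicate 2 (0.75), although the size of the change hardly moved.

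EREG, epiregulin, was the rarest of the 9 transcripts and did not reach the level needed for testing. It had 0.167, 0.291 and 0.297 FPKM in 3-NP replicates 1, 2 and 3, against 0.0373 and 0.0294 FPKM in control replicates 1 and 2. These levels came from 18, 31 and 32 reads in 3-NP libraries and from 4 and 3 reads in control libraries. All 3-NP libraries were above the controls, and the ratio of reads per depth was 7.51 with a counting interval of 3.48 to 19.3. Without a low-value filter EREG was not called.

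BTC, betacellulin, was the 1 ligand of the 5 that was lower. Its levels were 1.11, 1.62 and 1.23 FPKM in 3-NP replicates 1, 2 and 3, against 3.39 and 2.79 FPKM in control replicates 1 and 2. Each 3-NP library lay below both controls, on 59 to 85 reads in 3-NP libraries and 140 to 179 reads in control libraries. The mean was 1.32 ± 0.267 FPKM in 3-NP and 3.09 ± 0.426 FPKM in control libraries, 2.34 times lower in 3-NP (log2 change −0.82 ± 0.16 SE). Without control replicate 1 the log2 change was −0.71 and the call was lost.

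**Figure D1:**
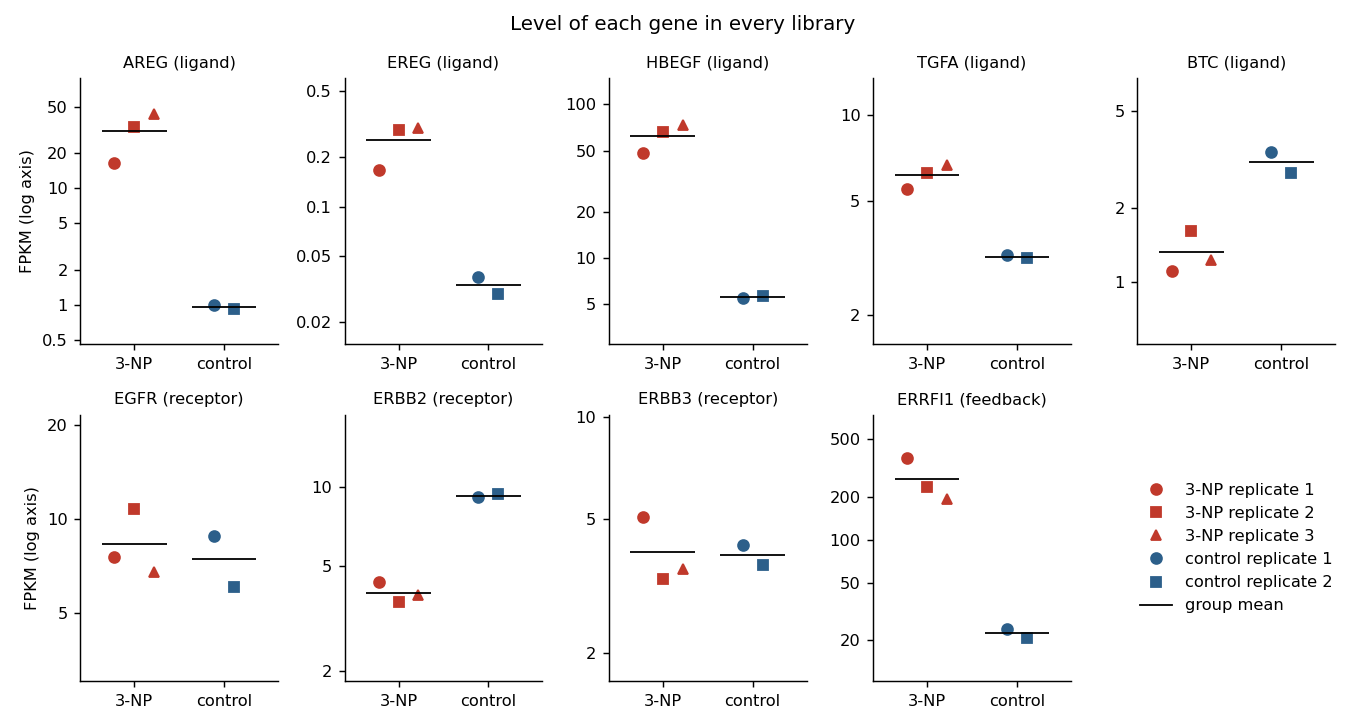
FPKM of each of the 9 genes (log axis, scaled per panel) in the 3-NP libraries (red) and control libraries (blue), 1 point per library, shaped by replicate, with a line at each group mean. The groups are apart for AREG, EREG, HBEGF, TGFA and ERRFI1 (3-NP higher) and for BTC and ERBB2 (3-NP lower), and they overlap for EGFR and ERBB3.

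Summed over the 5 ligands, transcript levels were 71.6, 107 and 125 FPKM in 3-NP replicates 1, 2 and 3, against 13.2 and 12.6 FPKM in control replicates 1 and 2. The make-up of the sum also differed. HBEGF gave 67.6%, 61.3% and 58.7% of it in the 3-NP libraries, against 41.7% and 45.1% in the control libraries. The share of AREG was 22.8%, 31.1% and 34.7% in 3-NP libraries, against 7.62% and 7.3% in control libraries. BTC made up 1.55%, 1.51% and 0.978% in 3-NP libraries and 25.7% and 22.2% in control libraries. HBEGF and AREG together therefore held the bulk of ligand transcripts in every 3-NP library, whereas in control libraries TGFA (24.6% and 25.2%) and BTC each had a share several times that of AREG. EREG was under 0.3% in all 5 libraries.

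**Figure D2:**
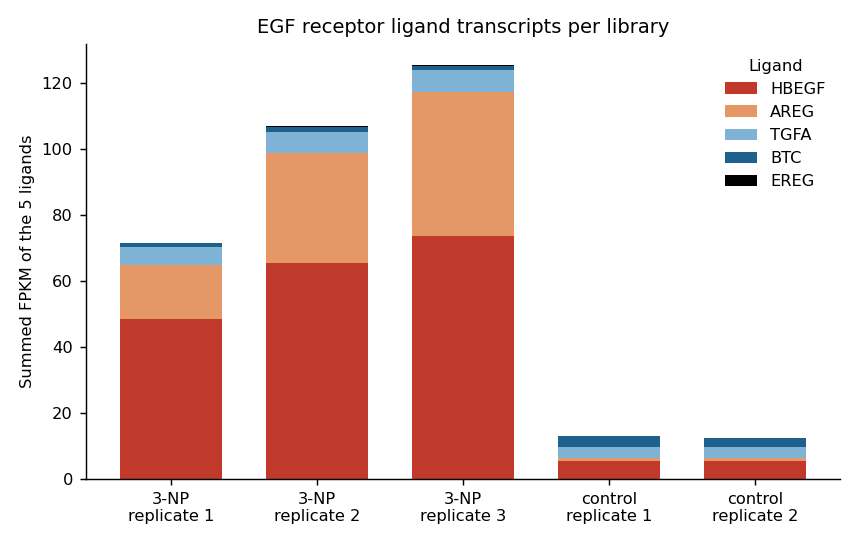
Summed FPKM of the 5 ligands in each library, stacked by ligand, with 3-NP libraries on the left and control libraries on the right. The 3-NP bars reach 71.6 to 125 FPKM and consist mainly of HBEGF and AREG, and the control bars reach 12.6 to 13.2 FPKM.

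Of the receptors, ERBB2 was lower in 3-NP libraries, and EGFR and ERBB3 overlapped between the groups. EGFR, the receptor that all 5 ligands bind, had 7.54, 10.8 and 6.76 FPKM in 3-NP replicates 1, 2 and 3, and 8.83 and 6.07 FPKM in control replicates 1 and 2. The groups overlapped, with means of 8.36 ± 2.12 FPKM in 3-NP and 7.45 ± 1.95 FPKM in control libraries. The log2 change of 0.14 ± 0.23 (SE) was not called, and its sign turned without control replicate 2 (−0.09) and without 3-NP replicate 2 (−0.03). The spread within each group was larger than the difference between them. The FPKM of HBEGF was 6.42, 6.08 and 10.9 times that of EGFR in 3-NP libraries, against 0.623 and 0.933 times in control libraries.

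ERBB2, which has no known ligand of its own and is the favoured partner of the other receptors, was lower. It had 4.35, 3.68 and 3.88 FPKM in 3-NP replicates 1, 2 and 3, against 9.13 and 9.38 FPKM in control replicates 1 and 2. The groups were tight and did not overlap. The mean was 2.33 times lower in 3-NP (3.97 ± 0.346 and 9.26 ± 0.174 FPKM in 3-NP and control libraries, log2 change −1.05 ± 0.14 SE). GENCODE 29 places PGAP3 and MIEN1 on the opposite strand over the ends of ERBB2, and the strand setting of the authors' counting is not given in the sources used here. PGAP3 had 1.48 ± 0.289 FPKM in 3-NP and 2.46 ± 0.73 FPKM in control libraries. MIEN1 had 7.89 ± 2.04 FPKM in 3-NP and 8.51 ± 0.655 FPKM in control libraries, and neither was called.

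ERBB3, a receptor with a weak kinase that binds neuregulins, had 5.08, 3.31 and 3.55 FPKM in 3-NP replicates 1, 2 and 3, and 4.2 and 3.65 FPKM in control replicates 1 and 2. The control values fell inside the range of the 3-NP libraries, and the log2 change was 0.00 ± 0.18 (SE). Another protein-coding gene is annotated on the same strand over the end of ERBB3, and how reads shared with it were counted is not stated.

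ERRFI1, the feedback inhibitor, was the most abundant of the 9 transcripts in both groups. It had 369, 232 and 191 FPKM in 3-NP replicates 1, 2 and 3, against 24.0 and 20.7 FPKM in control replicates 1 and 2. The lowest 3-NP library was several times the higher control. The means were 264 ± 93.2 FPKM in 3-NP and 22.4 ± 2.32 FPKM in control libraries, a ratio of 11.8 (log2 change 3.45 ± 0.27 SE), the tenth of all genes tested. By mean level ERRFI1 stood at place 130 of the 11858 genes tested in 3-NP libraries and at place 1885 in control libraries. In FPKM, ERRFI1 was 49.0, 21.6 and 28.3 times its target EGFR in 3-NP libraries, and 2.72 and 3.41 times in control libraries. ERRFI1 lies on chromosome 1 (positions 8004404 to 8026308, minus strand), and an annotated antisense gene overlaps its end.

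In all, the fit called 4 of the 8 tested genes higher (AREG, HBEGF, TGFA and ERRFI1) and 2 lower (BTC and ERBB2), beside the shares of 15.5% and 25.2% among all genes tested. By the wider rule that no library of one group overlaps the other, 5 of the 9 were higher and 2 lower, beside 25.8% and 38.4% of the genes tested (64.2% in either direction). The 9 include EREG, which was too low for testing, while those shares cover tested genes only. The 9 were chosen for these values, so nothing is read from the comparison with the background.

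The order of the 9 genes by level differed between the groups. In 3-NP libraries it ran ERRFI1, HBEGF, AREG, EGFR, TGFA, ERBB3, ERBB2, BTC and EREG, and only ERBB3 and ERBB2 overlapped as neighbours. In control libraries it ran ERRFI1, ERBB2, EGFR, HBEGF, ERBB3, TGFA, BTC, AREG and EREG, and only TGFA and BTC overlapped as neighbours. By FPKM, the 2 ligand transcripts HBEGF and AREG stood above every receptor in 3-NP libraries, and below EGFR and ERBB2 in control libraries. The exon lengths behind these levels were 9039 to 12521 bases for the receptors, 3018 for HBEGF and 1648 for AREG.

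Within the 3-NP group the ligands and the inhibitor were not high in the same libraries. AREG, EREG, HBEGF and TGFA were each lowest in 3-NP replicate 1. AREG, HBEGF and TGFA were highest in 3-NP replicate 3, while EREG was nearly equal in 3-NP replicates 2 and 3 (31 and 32 reads). ERRFI1 was highest in 3-NP replicate 1 and lowest in 3-NP replicate 3. Relative to the mean of the 3-NP libraries, replicate 1 stood at 0.526 for AREG, 0.663 for EREG, 0.775 for HBEGF and 0.898 for TGFA, and at 1.4 for ERRFI1. Among the 1842 genes called higher, replicate 1 was the lowest 3-NP library for 42.0% and the highest for 34.1%, so either position is common. Such shares were not worked out for replicate 3. The coefficient of variation among 3-NP libraries was 44.2% for AREG, 35.3% for ERRFI1, 20.5% for HBEGF and 9.57% for TGFA. The depth of the 3-NP libraries was nearly equal, at 18883130, 18653330 and 18830730 reads in replicates 1, 2 and 3.

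**Figure D3:**
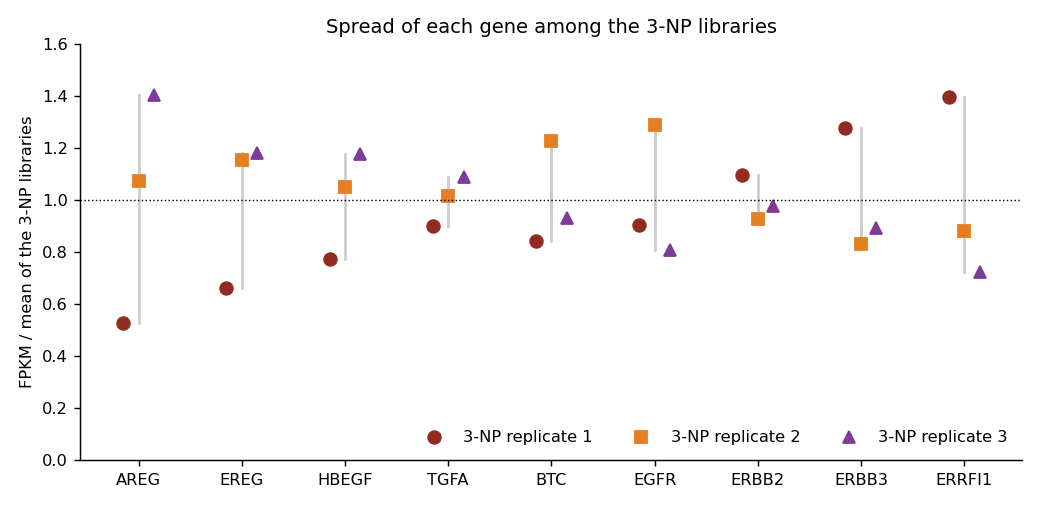
FPKM of each gene in the 3-NP libraries divided by the mean of those libraries, 1 point per library, with a dotted line at 1. Replicate 1 is lowest for AREG, EREG, HBEGF, TGFA and BTC (0.526 to 0.898) and highest for ERRFI1 (1.4), ERBB3 (1.28) and ERBB2 (1.1).

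AREG, EREG and BTC share a stretch of chromosome 4 with another family ligand, EPGN (epigen). Along the chromosome the order is MTHFD2L, EPGN, EREG, AREG, BTC and PARM1. The gap is 49835 bases between EPGN and EREG, 56382 bases between EREG and AREG and 289749 bases between AREG and BTC, which lies on the opposite strand. EPGN had 0.234, 0.236 and 0.381 FPKM in 3-NP replicates 1, 2 and 3, against 0.0588 and 0.124 FPKM in control replicates 1 and 2. That is 8, 8 and 13 reads in 3-NP and 2 and 4 reads in control libraries, a ratio of 3.14 with a counting interval of 1.28 to 9.24, too low for testing. PARM1, beyond BTC, had 6.69 ± 1.69 FPKM in 3-NP and 1.15 ± 0.397 FPKM in control libraries and rose (log2 change 1.83 ± 0.22 SE, adjusted p = 0.00113). MTHFD2L had 0.394, 0.852 and 0.903 FPKM in 3-NP replicates 1, 2 and 3 and 0.364 and 0.371 FPKM in control replicates 1 and 2. Of the 4 ligand genes in the stretch, the 3 on the plus strand were higher in every 3-NP library, and BTC was lower. For EPGN and EREG this rests on 2 to 4 reads per control library. MTHFD2L and PARM1, which are also on the plus strand and encode no ligand, were higher in every 3-NP library as well. MTHFD2L was too low for testing, and its 0.394 FPKM in 3-NP replicate 1 was close to the 0.371 FPKM of control replicate 2. Of all genes tested, 25.8% were higher in every 3-NP library and 38.4% lower, so no pattern by strand is read from these genes.

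Of the other genes of the family, 6 of 7 were in the files, and NRG3 was not analysed here. Neuregulin 1, NRG1, a ligand of ERBB3 and ERBB4, was the only one tested, and it fell. It had 2.22, 1.66 and 1.15 FPKM in 3-NP replicates 1, 2 and 3, against 4.21 and 3.28 FPKM in control replicates 1 and 2 (log2 change −0.84 ± 0.20 SE, adjusted p = 0.0148). The adjusted p of NRG1 was 0.124 without control replicate 1 and 0.0515 without control replicate 2, and 0.0643 without a low-value filter. ERBB4, a neuregulin receptor, had 0.289, 0.255 and 0.249 FPKM in 3-NP replicates 1, 2 and 3, against 0.0983 and 0.0775 FPKM in control replicates 1 and 2. The reads behind it numbered 194 in 3-NP and 42 in control libraries, a ratio per depth of 3 with a counting interval of 2.14 to 4.29. EGF itself was low, at 0.406 ± 0.155 FPKM in 3-NP and 0.307 ± 0.0585 FPKM in control libraries, with overlapping groups. NRG2 (0.729 ± 0.361 FPKM in 3-NP and 0.576 ± 0.114 FPKM in control libraries) and NRG4 (0.0636 ± 0.0283 and 0.0711 ± 0.0256 FPKM, in the same order of groups) overlapped as well.

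The wider pathway was described from 85 genes listed by role, of which 75 could be tested. Of these 12 rose and 14 fell, and the median log2 change was −0.08, against −0.11 over all genes tested. That is 16% higher and 18.7% lower, near the 15.5% and 25.2% of all genes. The counts were 18 higher and 12 lower with median-of-ratios scaling, 15 and 12 with quantile normalization and 9 and 20 with equal FPKM totals. They were 5 and 6 without control replicate 1, and 6 and 9 without control replicate 2.

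Among 10 genes of ligand release 3 rose and 1 fell. The protease ADAM17, which cuts AREG, EREG, HBEGF and TGFA from the membrane, had 15.5 ± 1.5 FPKM in 3-NP and 8.56 ± 1.87 FPKM in control libraries (log2 change 0.80 ± 0.17 SE, adjusted p = 0.00912). TIMP3, a secreted inhibitor of ADAM17, had 37.3 ± 2.6 FPKM in 3-NP and 15.3 ± 1.95 FPKM in control libraries (log2 change 1.24 ± 0.15 SE, adjusted p = 0.00114). FRMD8, a partner of the iRhom proteins that carry ADAM17 to the surface, rose by 0.62 (adjusted p = 0.0296). The metalloprotease ADAM12 fell, with 6.24 ± 2.06 FPKM in 3-NP and 17.8 ± 3.36 FPKM in control libraries (log2 change −1.41 ± 0.26 SE, adjusted p = 0.00575). ADAM12 had adjusted p = 0.0598 without control replicate 1, and ADAM17 had 0.0815 without control replicate 2. FRMD8 had 0.21 without control replicate 1, 0.0642 without control replicate 2, 0.0511 with equal FPKM totals and 0.0847 without a low-value filter.

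Of 19 tested genes that inhibit the receptors or drive their turnover 2 rose and 1 fell. PTPN1, a phosphatase that dephosphorylates EGFR, had 70.5 ± 3.32 FPKM in 3-NP and 26.2 ± 0.449 FPKM in control libraries (log2 change 1.39 ± 0.13 SE, adjusted p = 0.000573). LRIG1, a membrane protein that promotes receptor degradation, rose by 0.44 (adjusted p = 0.0346). The receptor phosphatase PTPRJ fell by 0.47 on the log2 scale (adjusted p = 0.0421). Leaving out any single library ended the call of LRIG1 (adjusted p = 0.0501 to 0.166). PTPRJ lost its call without either control (0.304 and 0.0663), without 3-NP replicate 2 (0.095) or 3 (0.081), and with quantile normalization (0.139) or median-of-ratios scaling (0.103). In the fit blocked on replicate number, LRIG1 had adjusted p = 0.102 and PTPRJ 0.112. Without a low-value filter they had 0.0703 and 0.0845, and LRIG1 had 0.0654 with equal FPKM totals. The ubiquitin ligases CBL and CBLB were not called.

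Among 19 tested adaptors and members of the RAS-ERK cascade 1 rose and 4 fell. NRAS had 9.02 ± 1.15 FPKM in 3-NP and 21.1 ± 1.6 FPKM in control libraries (log2 change −1.14 ± 0.15 SE, adjusted p = 0.00176). ARAF, a kinase of the cascade, fell by 0.93 on the log2 scale (adjusted p = 0.00436). GRB2, the adaptor that links the receptors to RAS, rose by 0.45 (adjusted p = 0.0374). The call of GRB2 was lost when any single library was left out (adjusted p = 0.0511 to 0.213) and in the blocked fit (0.0976), with equal FPKM totals (0.0704) and without a low-value filter (0.0558). The RAS activator SOS2, named after its values were seen, fell by 0.93 on the log2 scale (adjusted p = 0.0404, and 0.239 and 0.0835 without control replicates 1 and 2). SOS2 also lost its call with a pseudocount of 0.1, without a low-value filter and with quantile or median-of-ratios scaling (adjusted p = 0.0502 to 0.145).

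Among 26 tested PI3K-AKT and other effectors 6 rose and 7 fell. PIK3CD, a catalytic subunit of PI3K, had 10.7 ± 0.513 FPKM in 3-NP and 2.12 ± 0.041 FPKM in control libraries, 5.06 times higher in 3-NP (log2 change 1.91 ± 0.13 SE, adjusted p = 0.000243). JUN, a subunit of AP-1, had 194 ± 22.4 FPKM in 3-NP and 86.8 ± 0.402 FPKM in control libraries (adjusted p = 0.00186). The kinase SRC had 3.43 ± 0.0611 FPKM in 3-NP and 9.46 ± 0.998 FPKM in control libraries (log2 change −1.24 ± 0.14 SE, adjusted p = 0.00088). The transcription factor MYC had 12.1 ± 1.12 FPKM in 3-NP and 24.5 ± 2.05 FPKM in control libraries (adjusted p = 0.00257).

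Genes whose transcripts follow ERK activity in many tumour cells were also counted. Of 10 such genes 9 rose and 1 fell, with a median log2 change of 1.12, beside 15.5% higher, 25.2% lower and a median of −0.11 over all genes tested. This list, like the others, was drawn up with earlier results of these data known, so its count is no independent evidence of a direction. DUSP6, a phosphatase of ERK, was 12.9 times higher in 3-NP (8.77 ± 0.947 FPKM in 3-NP and 0.68 ± 0.0658 FPKM in control libraries, adjusted p = 0.000179), and PHLDA1 6.18 times higher (adjusted p = 0.000167). SPRY4 (log2 change 1.47), ETV4 (1.32), EPHA4 (1.16), DUSP4 (1.09), SPRY2 (0.81), EPHA2 (0.67) and ETV5 (0.53) rose too, and cyclin D1, CCND1, fell by 0.90 on the log2 scale (adjusted p = 0.00135 to 0.0177 over these genes). Of these DUSP4, EPHA2 and ETV5 lost the call without control replicate 1 (adjusted p = 0.0947, 0.0752 and 0.109) or control replicate 2 (0.0963, 0.0521 and 0.0934). CCND1 lost it without control replicate 1 (0.076), EPHA4 without control replicate 2 (0.105) and ETV5 without 3-NP replicate 3 (0.0521) and in the fit blocked on replicate number (0.0807). Without a low-value filter DUSP4 had adjusted p = 0.0809 and EPHA4 0.0684.

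Of the cumulus expansion genes that AREG and EREG induce in mouse follicles, TNFAIP6 had 14.6 ± 1.2 FPKM in 3-NP and 0.695 ± 0.171 FPKM in control libraries (log2 change 3.20 ± 0.15 SE, adjusted p = 8.33e-05). PTX3 rose by 1.28 (adjusted p = 0.000883), and PTGS2 had 1.34 ± 0.312 FPKM in 3-NP and 0.753 ± 0.034 FPKM in control libraries (adjusted p = 0.0838, and 0.0497 without 3-NP replicate 3). The hyaluronan synthase HAS2 was lower, at 0.114 ± 0.0249 FPKM in 3-NP and 0.747 ± 0.167 FPKM in control libraries, too low for testing.

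**Figure D4:**
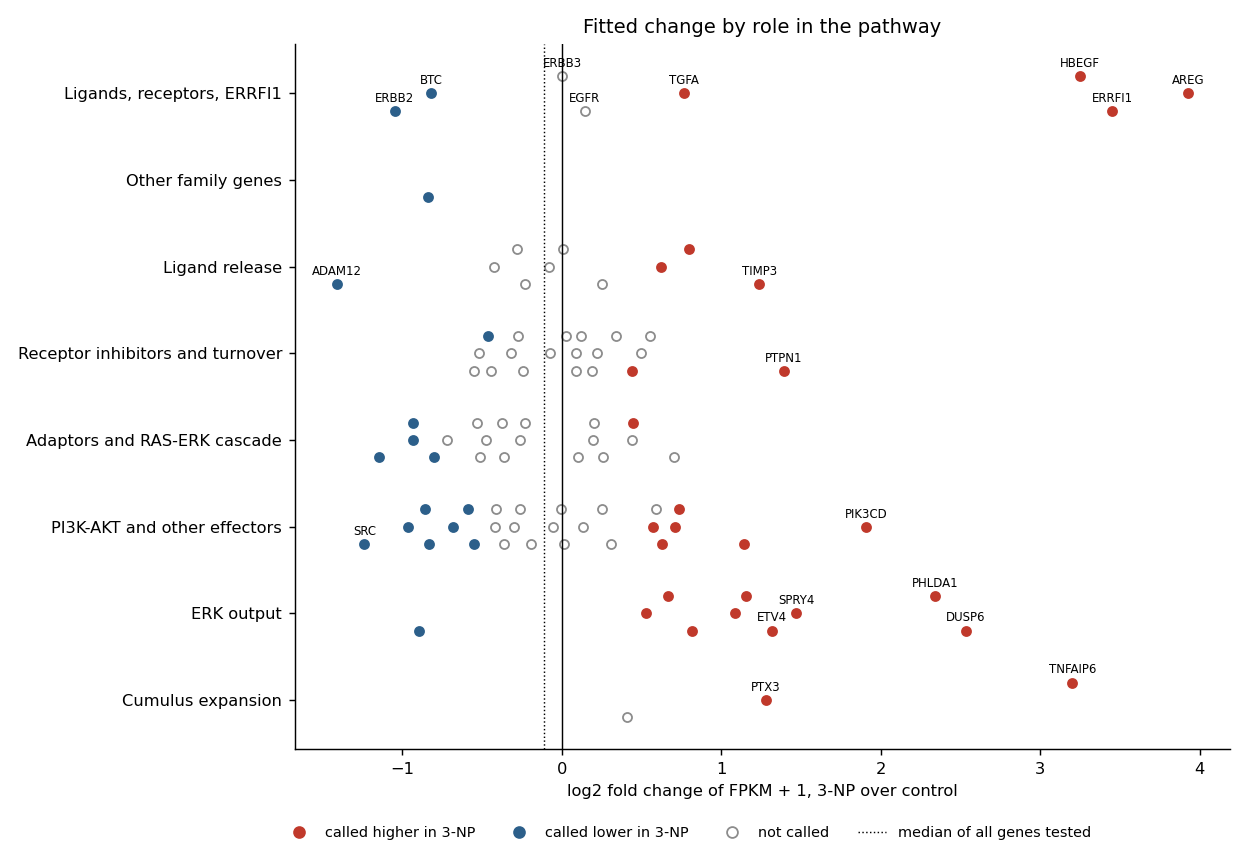
Fitted log2 change of FPKM + 1, 3-NP over control, for each tested gene by role, with calls filled red (higher in 3-NP) or blue (lower) and other genes open. AREG, ERRFI1 and HBEGF lie at 3.25 to 3.93, while the 75 other tested pathway genes spread on both sides of 0, with PIK3CD (1.91) and ADAM12 (−1.41) at the ends. Among the ERK output and cumulus expansion genes, TNFAIP6 (3.20), DUSP6 (2.54) and PHLDA1 (2.34) lie beyond PIK3CD, and CCND1 (−0.90) lies below 0.

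Likeness over the 5 libraries was measured as the Euclidean distance between profiles of log2(FPKM + 1) centred on the control mean, among the 10203 protein-coding genes whose mean over all libraries reached 1 FPKM. Nearest to AREG were the metallothionein MT1X (distance 0.447), the proteoglycan SDC4 (0.675) and the protease inhibitor TFPI2 (0.68). MT1X had 6.09, 17.9 and 18.1 FPKM in 3-NP replicates 1, 2 and 3, and was at 0.0301 and 0 FPKM in control replicates 1 and 2. Nearest to HBEGF were the transcription factor ATF3 (0.235), the polyamine acetyltransferase SAT1 (0.366) and the transporter SLC12A8 (0.486). ATF3 had 24.1, 29.9 and 34.0 FPKM in 3-NP replicates 1, 2 and 3, against 2.39 and 2.50 FPKM in control replicates 1 and 2. Nearest to ERRFI1 were TNFAIP6 (0.745), FOS (0.878) and the glycoprotein STC1 (0.938). For EREG, whose level is far under 1 FPKM, the scale is nearly flat, and its nearest genes TMED2, NQO2 and MAMLD1 (0.0516 to 0.0639) had log2 changes of 0.25 to 0.28.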

How the data were processed

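RNA of 3 libraries of 3-NP cells and 2 of control cells was sequenced; groups and replicate numbers come from the titles. Per the labels' protocols, total RNA came from TRIzol extraction and the library kit was stranded. HISAT2 2.1, Trimmomatic 0.39, bcl2fastq 2.17 and the build GRCh38 appear in the submitters' processing notes. For the read counter, its annotation and its strand setting: not given in the sources used here. The authors' deposited values carry no unit and were taken as FPKM, because value times exon length (GENCODE 29) times depth gave whole reads within 0.05 read for 92.8% to 93.1% of values above 0, which also gave the depths and reads quoted. Nothing says whether a count is a read or a pair.

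Of 30631 genes 30390 matched GENCODE 29. Genes that reached 1 FPKM in at least 2 libraries entered limma-trend (limma 3.58.1, R 4.3.3) on the log2(FPKM + 1) scale, with group as the only term and 3 residual degrees of freedom. P-values were adjusted by Benjamini-Hochberg over all genes tested. It was tested on simulated data, drawn with a fixed spread that was not fitted to these libraries. That test therefore gives no error rate for them. The 9 genes and all lists were chosen with earlier results of these data known. Named were the 9 genes and their family, up to 4 called genes of each pathway list, all genes of the ERK output, cumulus expansion and SWI/SNF lists, 4 granulosa markers and the 3 nearest profiles; 1 gene that this rule names is not reported here. Alternatives were a pseudocount of 0.1, no filter, a filter at 2 FPKM throughout either group, quantile normalization, median-of-ratios scaling, equal FPKM totals, a block on replicate number, and the omission of each library in turn with the tested genes kept. Voom on the recovered reads was added after the data were seen. Counting intervals are exact at 95% and cover counting error only. Promoter sequences are RefSeq's.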

Additional observations from a re-analysis of the deposited data

How the results depend on the processing

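Over all genes tested 1842 were called higher and 2991 lower. Scaling mattered for the balance: with median-of-ratios scaling 2257 were higher and 2416 lower, and with quantile normalization 2250 and 2441, where the median log2 change of all genes was −0.01 and −0.02 in place of −0.11. Leaving out a control moved the counts most. With each library left out in turn, 783 to 2160 genes were called higher and 1268 to 3082 lower, and of the pathway genes 5 to 12 higher and 6 to 15 lower, with the lowest counts without control replicate 1, where a single control is assumed to vary like the other group. Over 13 alternatives the log2 changes, as a description, were 3.64 to 4.88 for AREG, 3.12 to 3.47 for HBEGF, 3.18 to 3.66 for ERRFI1, 0.68 to 0.94 for TGFA, −1.23 to −0.67 for BTC, −1.22 to −0.91 for ERBB2, −0.09 to 0.38 for EGFR and −0.15 to 0.17 for ERBB3. Over the 37 other named genes that were tested and their 480 recomputed values, no called direction reversed and 59 values lost a call. The settings without a filter and with a filter at 2 FPKM leave each log2 change as it was by construction. The replicate block gave the same log2 changes as the omission of 3-NP replicate 3, which has no control of its number. The 13 are thus not separate checks of the size or direction of a change. EGFR (0.14 ± 0.23 SE) was not called, which does not show that its levels were equal.

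Replicates 1 and 2 of the groups share a number only. Deviations from the group mean correlated at 0.157 for replicate 1 and −0.351 for replicate 2 across 11858 genes, which are not independent. With the replicate block 1737 genes were higher and 2610 lower, and 13 and 13 of the pathway genes.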

Other observations

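The protein-coding genes next to the 9 genes on their chromosomes were looked up, 14 that are no member of the set. Of these 10 were tested, and 2 rose and 3 fell, the genes named here being chosen after their values were seen. Over all genes tested, 15.5% were called higher and 25.2% lower, so nothing is read from these counts. Beside PARM1, the sugar transporter gene SLC45A1, next to ERRFI1 at a gap of 291517 bases, had 8.49 ± 0.853 FPKM in 3-NP and 1.49 ± 0.0392 FPKM in control libraries (log2 change 1.93 ± 0.14 SE, adjusted p = 0.000289). PARK7, on the other side of ERRFI1, had 85.9 ± 11.1 FPKM in 3-NP and 80.8 ± 10.3 FPKM in control libraries. LANCL2, the gene after EGFR, fell to 1.22 ± 0.236 FPKM in 3-NP libraries, against 6.74 ± 0.467 FPKM in control libraries (log2 change −1.81 ± 0.15 SE, adjusted p = 0.000396), while EGFR itself was not called. FAM136A, before TGFA, had 4.06 ± 1.42 FPKM in 3-NP and 14.3 ± 2.3 FPKM in control libraries (adjusted p = 0.00307). PA2G4, which encodes an ERBB3-binding protein and lies 813 bases after ERBB3, had 14.5 ± 1.76 FPKM in 3-NP and 21.05 ± 2.28 FPKM in control libraries (adjusted p = 0.0345). PA2G4 had adjusted p = 0.091 and 0.206 without control replicates 1 and 2, 0.0546 and 0.0969 without 3-NP replicates 1 and 2, 0.0924 with median-of-ratios scaling and 0.0722 without a low-value filter. HBEGF lies between PFDN1, at 27.4 ± 0.89 FPKM in 3-NP and 25.3 ± 2.73 FPKM in control libraries, and SLC4A9, under 0.05 FPKM in every library.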
